A study of Drosophila melanogaster with 19 samples.

Results

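The cytosolic ribosomal protein genes are those whose symbol starts with RpL or RpS and a digit, or with RpLP and a digit, in the table of the Armi mutants. The rule gave 88 transcripts of 12013 with a symbol, 1 per gene, of which 52 carry a large subunit name and 36 a small subunit name. Mitochondrial ribosomal proteins have the prefix mRp and were not among them. The symbols RpL10, RpL26, RpS2 and RpS21 were not analysed here, and the small subunit proteins sta and Rack1 have names outside the rule. Of the 88 symbols, 86 are current in the RefSeq table, and RpL37a and RpL37b are older names there. RpL24-like and RpLP0-like meet the rule by name, but the yeast proteins they resemble, Rlp24 and Mrt4, are ribosome assembly factors.

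Ribosomal proteins assemble with ribosomal RNA into the small subunit, which decodes the mRNA, and the large subunit, which forms the peptide bond and holds the exit tunnel. Their mRNAs are short, abundant and translated in step with cell growth, and in flies the loss of 1 gene copy often gives the Minute phenotype of slow development. In ovarian somatic cells (OSC), a Drosophila line of follicle cell origin, piRNAs are made from transposon-derived transcripts and from some mRNAs. The RNA helicase Armitage (Armi) binds the precursors, the Tudor domain protein Yb gathers them in Yb bodies, the nuclease Zucchini (Zuc) cuts them on mitochondria, and the products are loaded into Piwi.

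Armi-bound RNA was measured by FAST-iCLIP, which sequences footprints left by RNase T1 after UV crosslinking, in cells with Yb RNAi (Yb KD) and EGFP RNAi (control KD) and in untreated cells. Cells transfected with Myc-Armi-D862A or Myc-Armi-R949A, against Myc-Armi-WT, were treated in the same way with an anti-Myc antibody, and no depletion of their own Armi is stated. Armi CLIPPARE, in which an adapter was joined to the 5′ ends of bound RNA before the digestion, was done after Zuc RNAi (Zuc KD) and after EGFP RNAi. Piwi-bound small RNA was sequenced from a library labelled Yb KD, from control KD cells and from untreated cells. All samples are OSC, with no other driver or allele stated. The labels give both knockdown Piwi libraries an anti-Myc antibody where the protocol has anti-Piwi, and give EGFP RNAi as the genotype of the library labelled Yb KD. Values are RPM, reads scaled to a common total per library (reads per M), and the sources used here do not define which reads make up the total. They fill 14 columns in 5 tables: 2 libraries each for Zuc KD and control KD CLIPPARE and for untreated Armi iCLIP, 1 for each Piwi condition, and 1 joined column for each of the other iCLIP conditions, where the labels list 2 libraries.

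The totals implied by the RPM ran from 0.813 M reads in control KD Piwi small RNA to 10.4 M in control KD iCLIP, and the transcripts shared by all tables took 11.4 to 63.8% of them. Armi-bound reads of fs(1)Yb, the Yb gene, came to 23.8 RPM in Yb KD, against 269 RPM in control KD iCLIP. In Piwi small RNA, fs(1)Yb had 44.5 RPM in the library labelled Yb KD, against 29.5 RPM in control KD. Between these 2 libraries the median over transcripts averaging 5 RPM or more was 4.01-fold higher in the one labelled Yb KD. Armi reads, the tagged gene, came to 5157, 3951 and 5235 RPM in D862A, R949A and WT Myc-Armi iCLIP, against 148 and 133 RPM in untreated iCLIP. Zuc reads came to 0.343 and 2.10 RPM in Zuc KD CLIPPARE, against 1.15 and 3.72 RPM in control KD, too few to check the label. The follicle cell markers summed to 2320 to 7010 RPM over the columns (11 of 11 measured), with 9 of 10 germline markers at 103 to 383 RPM and 5 of 5 hemocyte markers at 48.5 to 442 RPM. Osk, which defines the germline, was at 0.876 RPM or less in every column, and vas was not analysed here. Other germline markers were read, with spn-E at 80.0 to 303 RPM and krimp at up to 90.2 RPM, and spn-E made up most of the germline sum. Among the follicle cell markers, tj had 1170 to 4510 RPM, while cas was at 1.03 RPM or less.

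In untreated cells ribosomal protein transcripts were a regular part of Armi-bound RNA and a smaller part of Piwi-bound RNA. They took 0.871% of the reads of shared transcripts in Piwi small RNA (95% Clopper-Pearson interval 0.834 to 0.909%), against 2.59% (2.56 to 2.62%) and 2.47% (2.45 to 2.50%) in the untreated Armi iCLIP libraries. These intervals, like all those below, cover counting error only, and reads are not independent molecules. By the authors' classes of untreated piRNA level, none of the 88 was High, 14 were Middle (20.1 to 99.99 RPM of Piwi small RNA), 68 were Low and 6 were Zero. The Middle members were RpL3, RpL5, RpL6, RpL10Ab, RpL11, RpL15, RpL19, RpL22, RpL27A, RpL37A, RpL37a, RpS3A, RpS5a and RpS10b. Of all transcripts with a symbol, 1.98% were High, 6.18% Middle, 45.7% Low and 46.2% Zero. The large subunit took 58.0 to 66.7% of the ribosomal protein RPM over the 14 columns.

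Most members had reads in every assay. Averaged over the 14 columns, 80 of the 88 reached 5 RPM. Of the remaining 8, RpL10Aa, RpL7-like, RpL37b and RpS28a had no read in any column. Each of these has a counterpart that was read throughout. RpL10Ab, RpL7, RpL37a and RpS28b had 22.8 to 183, 18.4 to 184, 12.3 to 331 and 12.8 to 529 RPM, in that order. Other Drosophila ribosomal proteins also have a second copy, of which RpL22-like, RpS5b, RpS10a and RpS19b are known to be enriched in the gonads. In bound RNA of OSC each of these was below its counterpart, though RpS19b reached 30.9 RPM in D862A and RpS5b 14.9 RPM in R949A. Their mRNA levels were not analysed here. RpL22-like had 3 reads over all columns, against 5467 for RpL22. RpS5b, RpS10a, RpS19b, RpS15Ab and RpL34a were below RpS5a, RpS10b, RpS19a, RpS15Aa and RpL34b in 14 of 14 columns. RpS14b was below its near-identical neighbour RpS14a in 10 of 14 columns, and the reads of such copies may be split between them with error.

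RpL41, which encodes a very short basic peptide of the large subunit, stood apart from the other members. It had 567 and 490 RPM in the untreated Armi iCLIP libraries, 1879 RPM in Yb KD and 459 RPM in control KD iCLIP, and 1232, 1327 and 372 RPM in D862A, R949A and WT Myc-Armi iCLIP. In each of these 7 columns it was the highest member. In CLIPPARE it had 54.5 and 74.3 RPM in Zuc KD, against 83.9 and 81.1 RPM in control KD, inside the range of the other members. In Piwi small RNA it had only 4.47 RPM (8 reads) in untreated cells, 75 RPM (64 reads) in the library labelled Yb KD and 7.38 RPM (6 reads) in control KD. Per kb of locus, introns included, untreated Armi iCLIP gave 1030 RPM for RpL41, 175 for RpL38, 149.999 for RpS28b and 147 for RpS29, with a median of 28.1 over the 80 members. The RpL41 locus overlaps that of the sodium channel gene NaCP60E, which had 41.2 to 289 RPM over the columns, and in Piwi small RNA NaCP60E was the higher of the pair in all 3 libraries.

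**Figure D1:**
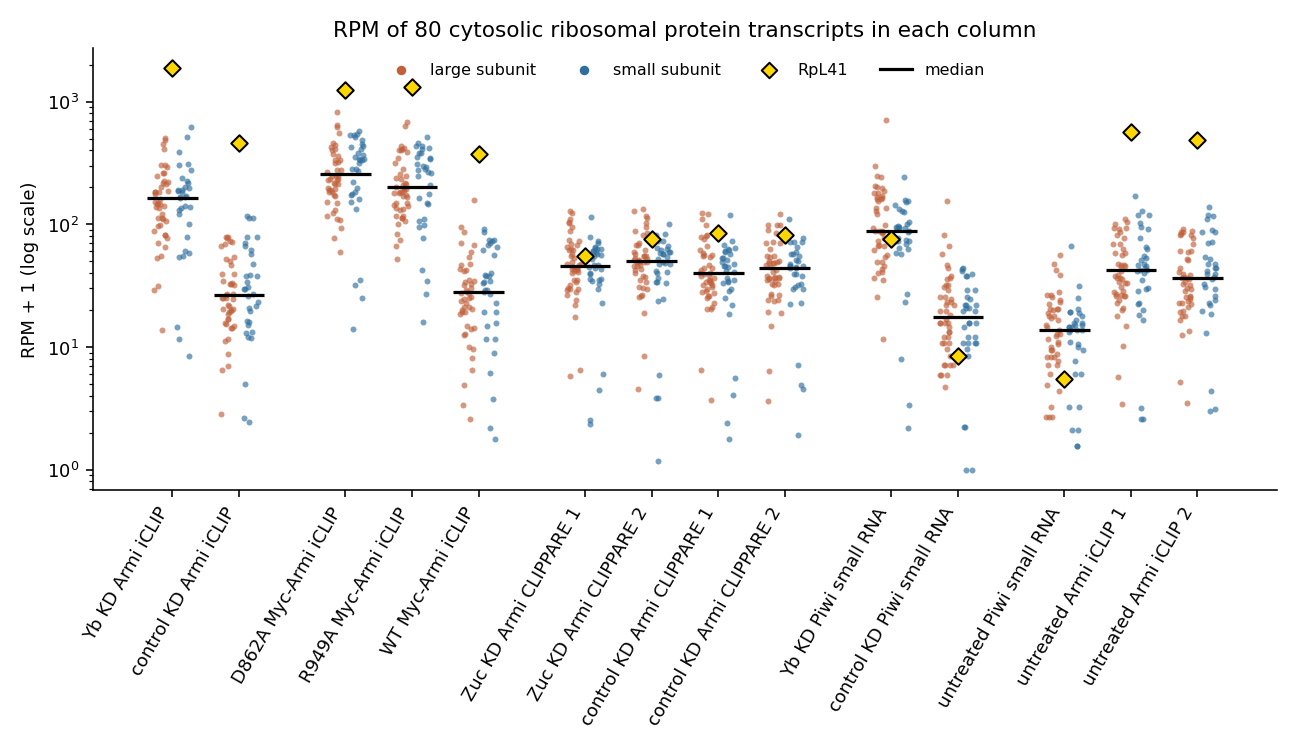
RPM plus 1 (log scale) of the 80 members that average at least 5 RPM, in each of the 14 columns, with large subunit members in orange, small subunit members in blue, RpL41 as a yellow diamond and the median as a bar. RpL41 lies above all others in the 7 iCLIP columns and among or below them in CLIPPARE and Piwi small RNA. The medians are 162 RPM in Yb KD, against 25.3 RPM in control KD iCLIP.

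Over the 14 columns, the profile of log2(RPM + 1) most like that of RpL41, among 2291 transcripts averaging 20 RPM or more, was that of CG6330 (Pearson r = 0.98). CG5554 and Sec61alpha, which forms the channel of the endoplasmic reticulum membrane, each had r = 0.97. FK506-bp2 and His4r had 0.97 and 0.96. The closest member was RpS23, a protein of the decoding centre, in sixth place (r = 0.96). The least like member was RpL3, which reaches the peptidyl transferase centre (r = 0.0022). These columns share cells and, within an assay, a protocol, so the values are descriptive.

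Piwi-bound RNA was compared with Armi footprints in untreated cells, where both assays are in 1 table. A log2 ratio of RPM + 1 was taken for transcripts that averaged 5 RPM or more over the columns compared, and read against the median of all such transcripts (the table median). Of the 75 members that passed, 72 had a lower value in Piwi small RNA, where 72.9% of all transcripts did. The table median was -0.66 and the members' median -1.59, so members lay 0.93 below it on the log2 scale. Members below the table median numbered 65, and 36 were at least 2-fold below, against 17.3% of all transcripts. Among the 36, RpL41, RpS16, RpL36A, RpS14a, RpL23, RpS14b, RpL29 and RpL35 were below 5 RPM in Piwi small RNA. They passed only through Armi iCLIP and had to be lower in Piwi small RNA. The same holds for any transcript below 5 RPM in Piwi small RNA, and these were not counted over the whole table. The medians were -1.67 for the 30 small subunit members and -1.53 for the 45 large subunit members. With 1 Piwi library, none of this has a replicate test.

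RpL41 was at the low end, with 4.47 RPM in Piwi small RNA against 567 and 490 RPM in Armi iCLIP, 118-fold lower by the means. RpS16, whose tail reaches toward the P site, had 1.12 RPM (2 reads) in Piwi small RNA, against 43.0 and 36.2 RPM in Armi iCLIP. RpL23A, at the mouth of the exit tunnel, had 6.14 RPM against 92.1 and 86.0 RPM. RpS27 had 8.94 RPM against 117 and 115 RPM. These 4 were picked as the lowest ratios among members averaging 20 RPM or more, so the gap between the assays follows from the choice.

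Of the 75 members, 3 were higher in Piwi small RNA than in the mean of Armi iCLIP (27.1% of all transcripts), all of the large subunit. RpL22, which in flies carries a long amino-terminal extension, had 46.4 RPM in Piwi small RNA, against 32.4 and 24.6 RPM. RpL3 had 55.3 RPM against 46.5 and 39.8 RPM. RpL10Ab, of the L1 stalk, had 41.3 RPM against 35.7 and 34.9 RPM. Next among members averaging 20 RPM or more was RpS15, with 19.6 RPM in Piwi small RNA, against 27.4 and 17.4 RPM in Armi iCLIP, and its values overlap. Over the 80 members, levels in the 2 Armi libraries were close (Spearman rho = 0.98), while Armi and Piwi levels were less so (rho = 0.48, with a total of 1.79 M reads behind the Piwi library).

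**Figure D2:**
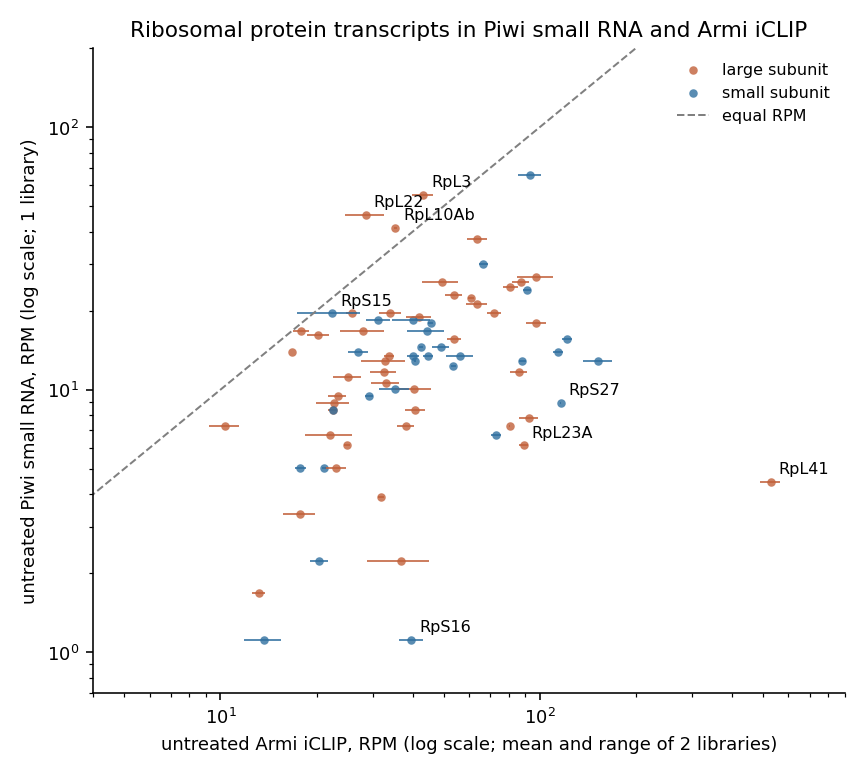
RPM in untreated Piwi small RNA (1 library) against RPM in untreated Armi iCLIP (point at the mean, line over the range of 2 libraries), both on log scales, with the named members labelled. RpL3, RpL22 and RpL10Ab lie above the line of equal RPM, and RpL41 lies far to the right at 4.47 RPM of Piwi small RNA.

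Yb KD was compared with control KD in Armi iCLIP, which asks what Armi binds when Yb is depleted. Ribosomal protein transcripts took 4.66% of the shared reads in Yb KD (4.62 to 4.69%), against 1.52% in control KD (1.51 to 1.54%), a ratio of 3.06. As a share of the total behind the RPM, the ratio was 5.10. A change in binding and a change in the amount of an mRNA cannot be told apart, since unbound RNA was not analysed here, nor can fewer cells and less RNA per cell. RPM rose across the whole table, with a table median of 1.58 on the log2 scale, so values are given as deposited and relative to it. All 79 members that passed were higher in Yb KD as deposited, as were 88.1% of all transcripts. Of the 79, 76 had at least 5 RPM in control KD. The other 3 passed only through the Yb KD column and had to be higher in it. Relative to the table median, 73 members were above it and 30 were at least 2-fold above, against 9.51% of all transcripts. The members' median log2 ratio was 2.45, or 0.86 above the table median. It was 2.56 for 47 large subunit members and 2.38 for 32 small subunit members.

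Large ratios among members averaging 20 RPM or more were found in both subunits. RpS7 had 189 RPM in Yb KD, against 20.4 RPM in control KD, 9.23-fold higher (95% counting interval 7.93 to 10.8). RpL3 was 8.48-fold higher (7.41 to 9.75), at 219 RPM in Yb KD and 25.8 RPM in control KD. RpL8, which also reaches the peptidyl transferase centre, was 8.28-fold higher (7.32 to 9.39), at 259 RPM in Yb KD and 31.3 RPM in control KD. These are joined columns, so the interval leaves out the spread between cultures.

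A few members stayed below the table median of 2.99-fold. RpS23 had 224 RPM in Yb KD, against 112 RPM in control KD, 2.00-fold higher (1.84 to 2.18). RpS15Aa was 2.41-fold higher (2.15 to 2.71) at 135 RPM in Yb KD and 55.9 RPM in control KD. RpS10b was 2.53-fold higher (2.30 to 2.79) at 196 RPM in Yb KD and 77.3 RPM in control KD. RpL19 was 2.79-fold higher (2.52 to 3.10) at 183 RPM in Yb KD and 65.5 RPM in control KD. RpL37a and RpS19b were the other 2 below the median. RpL41 was 4.10-fold higher (3.95 to 4.25) and thus 0.45 above the table median on the log2 scale.

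**Figure D3:**
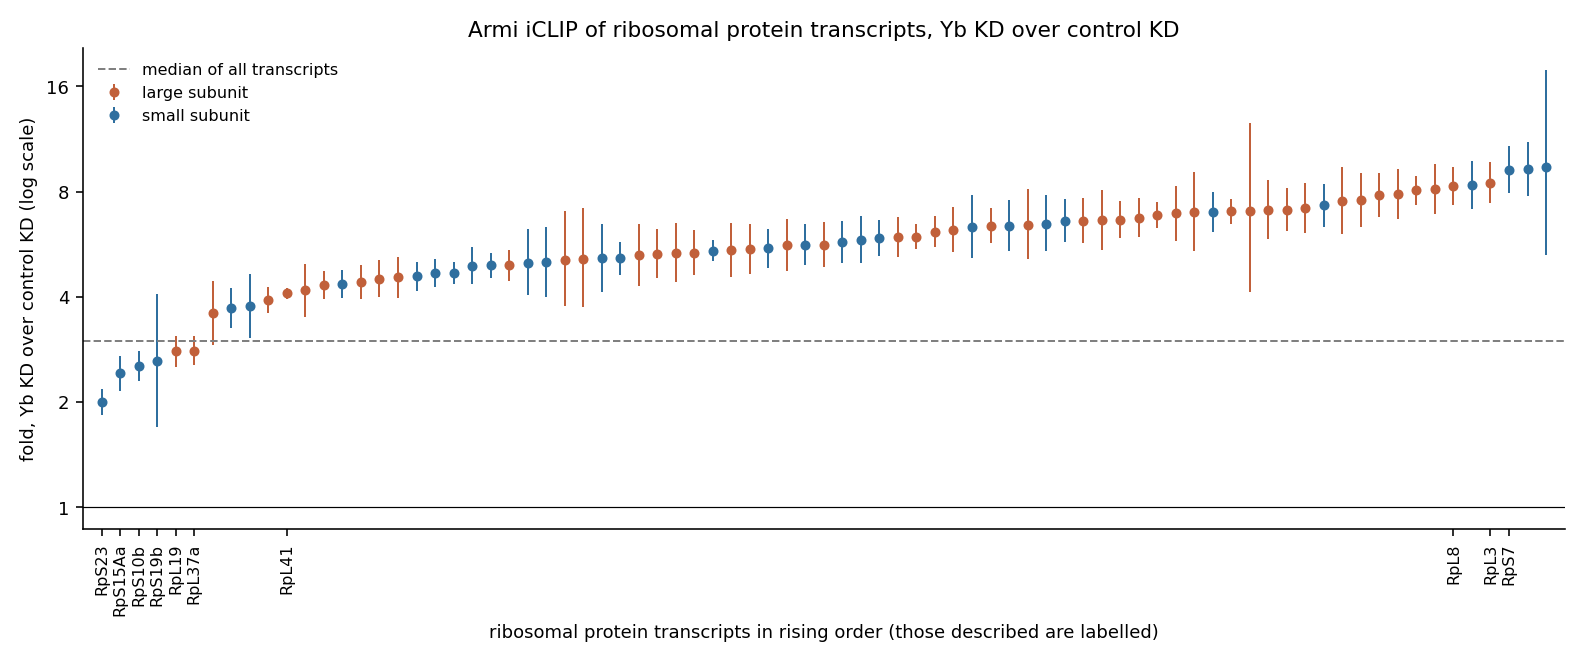
Ratio of RPM, Yb KD over control KD Armi iCLIP (log scale), for the members that passed the filter, in rising order, with members described in the text labelled and 95% exact conditional intervals that cover counting error only. All lie above 1, from 2.00 in RpS23 upward, and 6 lie below the dashed median of all transcripts at 2.99.

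Other translation genes were set beside them with the same measure. Of 27 translation factors, 23 passed, of which 21 lay above the table median, and their median was 0.54 above it. Among them Ef1alpha48D, an elongation factor that brings tRNA to the ribosome, had 1965 RPM in Yb KD and 450 RPM in control KD, and the poly(A) binding protein gene pAbp had 2424 RPM in Yb KD and 599 RPM in control KD. Of 22 ribosome biogenesis genes, 19 passed, 9 above and 10 below the table median (median -0.03). Tif-IA, needed for RNA polymerase I, was lower, with 125 RPM in Yb KD and 357 RPM in control KD. Of 72 mitochondrial ribosomal protein transcripts, 11 passed, and 7 of these were below 5 RPM in control KD. Genes below 5 RPM in control KD were not counted for the translation factors and the ribosome biogenesis genes. The small subunit proteins outside the naming rule, Rack1 and sta, had 241 and 280 RPM in Yb KD, against 33.5 and 47.0 RPM in control KD.

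In Piwi-bound small RNA, the library labelled Yb KD also held more ribosomal protein reads. They took 1.59% of the shared reads in it (1.55 to 1.63%), against 0.936% in control KD (0.888 to 0.986%), a ratio of 1.70, or 5.00 as a share of the total behind the RPM. All 77 members that passed were higher as deposited, as were 93.6% of all transcripts, with a table median of 2.00 on the log2 scale. Of the 77, 72 had at least 5 RPM in control KD. The other 5 passed only through the library labelled Yb KD and had to be higher in it. Relative to the table median, 59 members were above and 10 were at least 2-fold above, against 12.5% of all transcripts. The members' median was 2.29, or 0.29 above the table median (0.35 for large subunit and 0.24 for small subunit members). There is 1 library a condition, so there is no replicate test.

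RpL13A, a large subunit protein with a role outside the ribosome in mammals, had 243 RPM in the library labelled Yb KD, against 12.3 RPM in control KD (10 reads), 19.7-fold higher (10.5 to 41.7). RpL27 was 13.9-fold higher (5.69 to 44.1), at 85.5 RPM in the library labelled Yb KD and 6.15 RPM in control KD. RpL24 was 10.7-fold higher (3.91 to 41.02), at 52.7 RPM in the library labelled Yb KD and 4.92 RPM in control KD (4 reads). RpL24 passed the filter only through the library labelled Yb KD. RpL41 was 10.2-fold higher (4.42 to 28.7), at 75 RPM in the library labelled Yb KD and 7.38 RPM in control KD. At the other end of the members averaging 20 RPM or more, RpS10b had 93.7 RPM in the library labelled Yb KD and 38.1 RPM in control KD, 2.46-fold higher (1.605 to 3.85). RpS12, RpL36A and RpS9 were 2.54-fold, 2.86-fold and 2.95-fold higher. The highest level of a member in this library was that of RpL3, with 705 RPM, against 155 RPM in control KD.

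The members that gained most Armi footprints were not in general those that gained most Piwi small RNA. Over 77 members the log2 ratios of the 2 assays had a Spearman rho of 0.28, beside 0.66 over 3856 transcripts of the tables, with no library in common. The low end shared RpS10b, while RpL13A, first in Piwi small RNA, had 183 RPM in Yb KD Armi iCLIP and 25.8 RPM in control KD. Counts in control KD Piwi small RNA were small, at 1412 reads over all members.

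Members made up a larger share of the RNA bound by both Armi mutants. They took 3.75% of the shared reads in D862A (3.73 to 3.77%) and 3.09% in R949A (3.07 to 3.10%), against 0.910% in WT Myc-Armi iCLIP (0.890 to 0.930%). These are ratios of 4.12 and 3.39, or 7.85 and 6.52 as shares of the total behind the RPM. In D862A all 81 members that passed were higher than in WT as deposited, as were 86.7% of all transcripts (table median 1.73). Relative to the table median, 79 were above and 58 were at least 2-fold above, against 26.7% of all transcripts. In R949A the same 3 counts were 81 (86.8% of all), 76 and 52 (26.3% of all), with a table median of 1.68. The members' median log2 ratio was 3.34 in D862A and 2.95 in R949A. By subunit it was 3.36 for large and 3.09 for small in D862A, and 3.02 for large and 2.87 for small in R949A. Both comparisons use the same WT column, so they are not independent.

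On the log2(RPM + 1) scale RpL24-like had the largest ratio, with 110.0 RPM in D862A and 99.1 RPM in R949A, against 2.36 RPM (6 reads) in WT. As ratios of RPM these are 46.6-fold (21.3 to 128) and 42.0-fold higher (19.2 to 115), and RpL24-like passed the filter only through the mutant columns. RpL38, known in mouse for its part in the translation of Hox mRNAs, had 821 RPM in D862A and 629 RPM in R949A, against 33.0 RPM in WT, which is 24.9-fold (20.05 to 31.2) and 19.1-fold (15.4 to 24.0). RpL34a had 58.0 RPM in D862A and 50.7 RPM in R949A, against 1.57 RPM in WT (4 reads), and likewise passed only through the mutants. RpL21 had 553 RPM in D862A against 24.0 RPM in WT, and RpL39, which lines the exit tunnel, 106 RPM in R949A against 5.50 RPM in WT.

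RpL5, which binds the ribosomal 5S RNA together with RpL11, had the smallest ratio of the 81 in both, with 194 RPM in D862A and 183 RPM in R949A, against 69.6 RPM in WT. It was 2.78-fold higher in D862A (2.38 to 3.28) and 2.63-fold higher in R949A (2.24 to 3.11), below the table median in each. RpL41 was 3.31-fold higher in D862A and 3.57-fold in R949A, 0.00 and 0.16 from the table median on the log2 scale, and its share of the member RPM was 5.19% in D862A and 6.74% in R949A, against 12.3% in WT. RpLP0, the base of the stalk that recruits elongation factors, was 3.81-fold higher in D862A, and RpS7 was 2.99-fold higher in R949A. RpS7, at the top in Yb KD, was thus near the bottom here, and over 79 members the Yb KD and D862A ratios had a rho of 0.013.

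The members' medians lay above the table median by 1.61 in D862A and 1.27 in R949A. Of the 81 that passed, 74 had at least 5 RPM in WT itself, while the other 7 passed through the mutant columns. Of 72 mitochondrial ribosomal protein transcripts, 51 passed in D862A and 48 in R949A, but 46 and 43 of these were below 5 RPM in WT and had to be higher in the mutant to pass, so no median is given for them. The medians of translation factors lay 0.40 and 0.42 above the table median, and those of ribosome biogenesis genes 0.74 and 0.77. How many of these genes had at least 5 RPM in WT was not counted. Some may have passed only through the mutant columns, so these medians are not set against those of the members. Members have short loci, with a median span of 1.12 kb, against 2.06 kb over all symbols. The log2 ratio fell with locus span over all transcripts (rho = -0.48 in D862A and -0.44 in R949A) and over the 81 members (-0.29 and -0.27). The part of span in these ratios was not tested. Between the mutants, 68 of 81 members lay above the table median of D862A over R949A, with a median log2 ratio of 0.29, and 1 was at least 2-fold above (RpS15, 174 RPM in D862A and 75.6 RPM in R949A), against 3.49% of all transcripts.

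**Figure D4:**
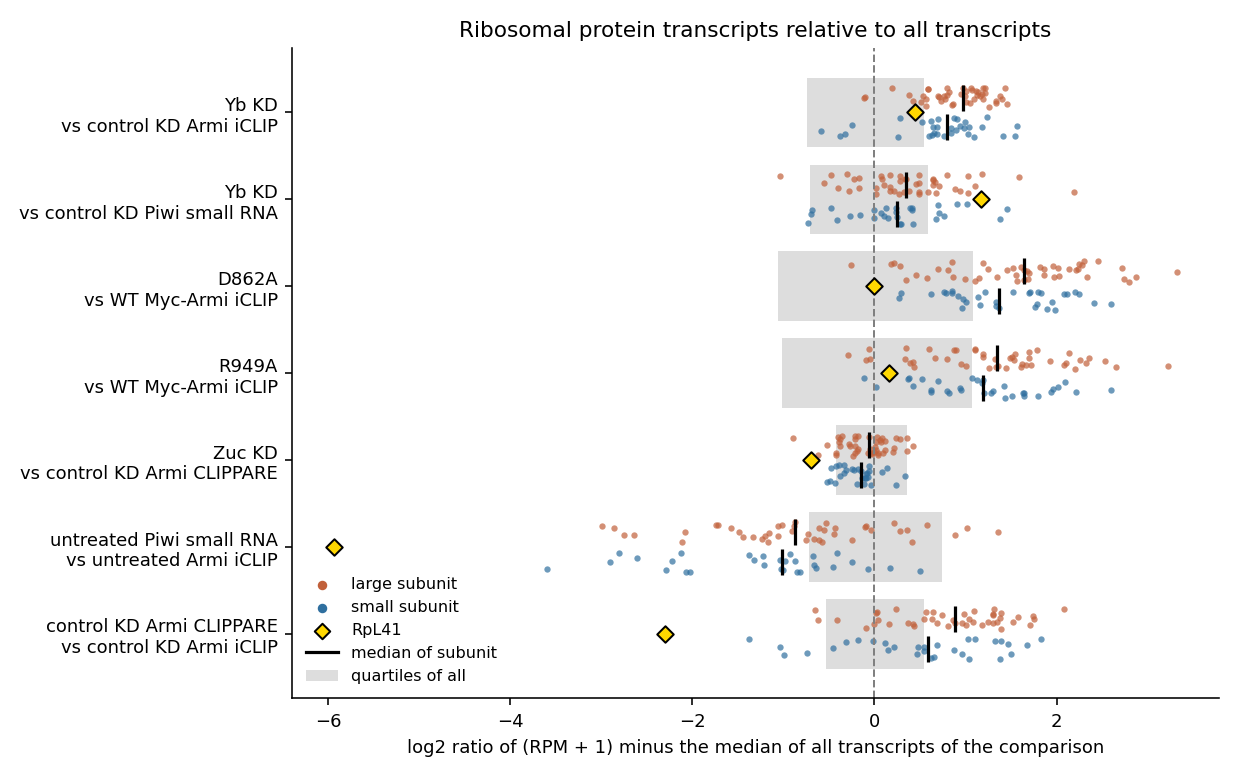
Log2 ratio of RPM + 1 minus the table median for each member that passed, in 7 comparisons, with large subunit members in orange, small subunit members in blue, RpL41 as a diamond, subunit medians as bars and the range between the quartiles of all transcripts in grey. Members lie mostly to the right in Yb KD and in both mutants and to the left in untreated Piwi small RNA, and RpL41 is the lowest member in both comparisons of another assay with iCLIP.

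The 5′ ends captured by CLIPPARE were compared with iCLIP footprints in control KD cells, across tables normalized separately. Members took 3.12 and 2.04% of the shared reads in the CLIPPARE libraries, against 1.52% in iCLIP. Of the 75 that passed, 61 lay above the table median (-0.16) and 30 were at least 2-fold above, against 10.7% of all transcripts. The members' median was 0.74 above the table median, at 0.88 for large subunit and 0.58 for small subunit members. RpL41 was lowest, with 83.9 and 81.1 RPM in CLIPPARE against 459 RPM in iCLIP, 5.56-fold lower by the means. Of members averaging 20 RPM or more, the next were RpS24, RpS27 and RpS23, at 2.27-fold, 2.25-fold and 1.88-fold lower. Among members averaging 20 RPM or more, RpL39 was highest, with 77.8 and 43.5 RPM in CLIPPARE against 14.6 RPM in iCLIP (4.16-fold), followed by RpS27A, made as a fusion to ubiquitin (3.34-fold), RpL17, of the exit tunnel (3.10-fold), and RpL3 (3.08-fold).

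Members low in CLIPPARE against iCLIP were often also low in Piwi small RNA against iCLIP. The 2 ratios had a rho of 0.46 over 75 members (0.44 without RpL41), beside 0.41 over 2696 transcripts. They have no library in common, but both have Armi iCLIP of OSC as the reference. A transcript high in iCLIP thus tends to be low in both, so the ratios are not independent. Among members averaging 20 RPM or more, RpL41 and RpS27 were among the lowest 4, and RpL3 among the highest 4, in both.

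Zuc KD was compared with control KD in CLIPPARE, with 2 libraries each, to ask whether Armi-bound 5′ ends change when Zuc is depleted. No member passed the test. By limma on log2(RPM + 1), over the 4006 transcripts that averaged 5 RPM or more, 471 were higher (11.8%) and 111 lower (2.77%) at a Benjamini-Hochberg adjusted p of 0.05. Of the 75 members tested, 0 were called, and the smallest limma adjusted p was 0.115. At an unadjusted limma p under 0.05, 1 member (RpL22) was higher and none lower. Over all 4006 transcripts, 977 were higher and 246 lower at that threshold. By edgeR's quasi-likelihood test on recovered reads, 2 were called (RpL38 and RpL41, both lower), and by DESeq2 1 (RpL41, lower). Over all transcripts edgeR called 452 higher and 549 lower, DESeq2 233 and 436, and limma with each library centred on its median 379 and 570. The other 13 members were too low to test.

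The members' median log2 change was 0.21, with 55 higher (69.9% of all transcripts) and 20 lower (30.1%) as deposited, and 0.12 below the table median of 0.33. With each library centred on its median, the members' median was -0.12. The libraries of the groups did not overlap for 41 members higher in Zuc KD (47.6% of all transcripts) and 4 lower (12.9%). RpL22 had 42.2 and 53.8 RPM in Zuc KD, against 24.8 and 31.6 RPM in control KD, a log2 change of 0.75 ± 0.34 (SE) with a limma adjusted p of 0.115. RpL4, of the exit tunnel, RpL3 and RpS16 had log2 changes of 0.68 ± 0.35, 0.68 ± 0.37 and 0.66 ± 0.34.

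RpL38, RpL41, RpL39 and RpS28b, all small proteins, had the lowest values. RpL38 had 34.1 and 49.4 RPM in Zuc KD, against 80.7 and 46.9 RPM in control KD, a log2 change of -0.57 ± 0.35 with overlapping libraries and a limma adjusted p of 0.255. RpL41 had 54.5 and 74.3 RPM in Zuc KD, against 83.9 and 81.1 RPM in control KD, a log2 change of -0.37 ± 0.36 with no overlap and a limma adjusted p of 0.503. RpL39 and RpS28b had changes of -0.30 ± 0.35 and -0.20 ± 0.35. Between the control KD libraries the table median itself moved by 0.47 on the log2 scale and the members' median by 0.05, and members took 3.12 and 2.04% of their shared reads, on both sides of the 2.75 and 2.81% in Zuc KD. Nothing in the labels says that the libraries come from separate cultures, so the p-values cover no more than the spread between these libraries. That spread is mainly the one limma fits over all transcripts of like level, and not each member's own. The SE thus lay between 0.33 and 0.40 for every member tested. Without control KD replicate 2, the members' median log2 change was 0.22 and the table median 0.56. Without control KD replicate 1, they were 0.20 and 0.12. The control group then holds a single library, so only medians are given.

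**Figure D5:**
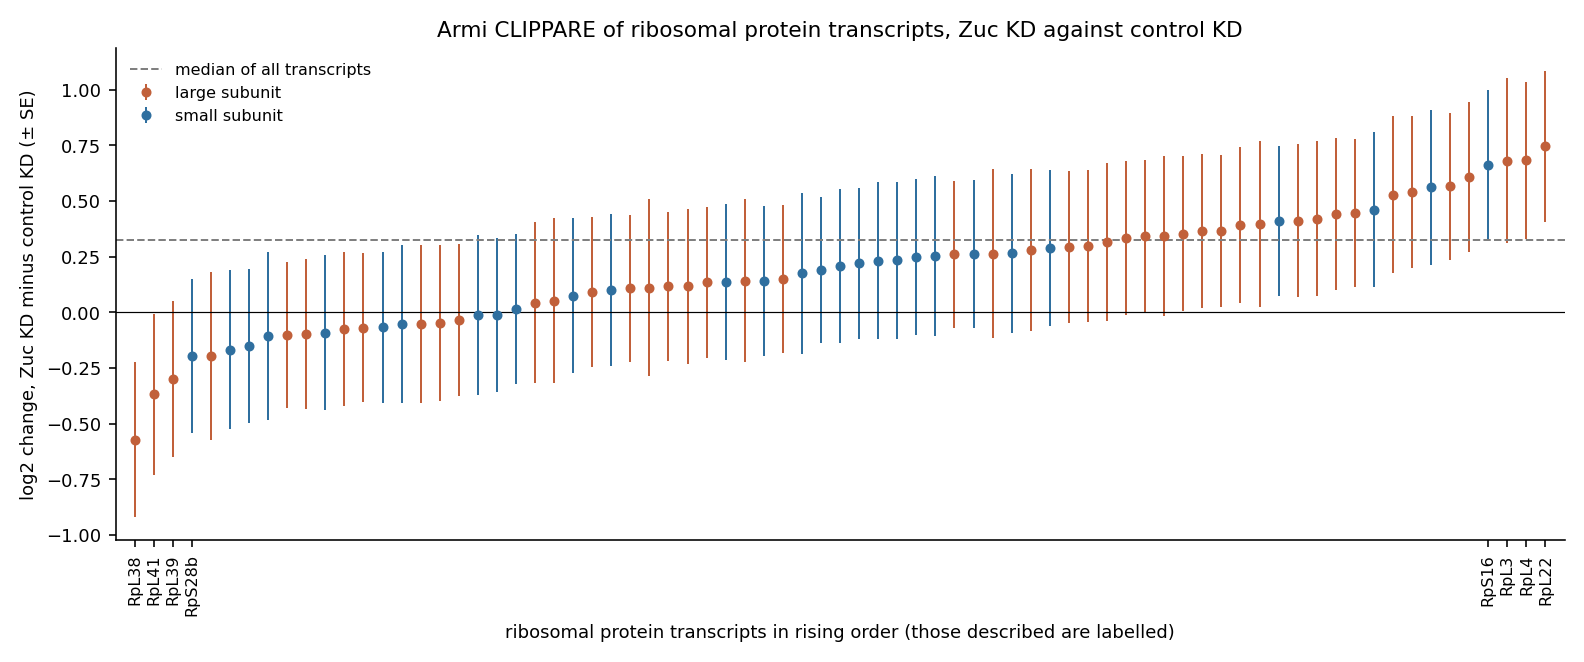
Log2 change of RPM + 1, Zuc KD minus control KD Armi CLIPPARE (2 libraries each), with its limma standard error, for the members tested, in rising order, with members described in the text labelled. The values run from -0.57 in RpL38 to 0.75 in RpL22, and the dashed line marks the median of all transcripts at 0.33.

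The control conditions themselves differed in members. Against untreated cells, 1 of 76 members lay above the table median in control KD Armi iCLIP, with a members' median log2 ratio of -0.47. It was RpL24-like, at 5.95 RPM in control KD against 4.73 and 4.15 RPM in untreated cells. RpL24-like passed the filter only through control KD and had to be higher there. In WT Myc-Armi iCLIP, 3 of 75 members lay above the table median, with a members' median of -0.43. The table medians were 0.17 and 0.68. In control KD Piwi small RNA, 23 of 72 lay above the table median of 0.95. At least 2-fold below the table median were 8, 46 and 18 members in these 3 comparisons, against 0.376%, 18.4% and 16.5% of all transcripts. All 3 cross tables normalized separately. The comparisons of Yb KD and of the mutants have these columns as their controls. In iCLIP, members took 4.66% of the shared reads in Yb KD, 3.75% in D862A and 3.09% in R949A, against 2.59 and 2.47% in the untreated libraries.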

How the data were processed

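The authors deposited RPM for each FlyBase transcript. Per the submitters' processing notes, the authors used cutadapt and STAR with dm6; versions, the counting step, multiple hits and strand are not given in the sources used here. Within a column all RPM are multiples of the value of 1 read, to within 0.1 read, and this gave back reads and totals. In all, 107 repeated lines were dropped and 0 value columns were left unmapped. Locus spans come from the deposited tables; no positions are printed because the loci follow another assembly than the reference table. At 16 members another locus overlaps, and reads cannot be assigned there with certainty.

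Groups follow the sample titles. The limma test planned for the joined columns could not be run, so these were described by log2 ratios (pseudocount 1 RPM, mean of at least 5 RPM) with 95% exact conditional binomial intervals. Zuc KD was fitted over all transcripts with limma 3.58.1 (eBayes with trend) in R 4.3.3, with edgeR 4.0.16 and DESeq2 1.42.0 on recovered reads as alternatives, and tested on simulated data. Same-numbered CLIPPARE libraries did not deviate together (correlation 0.05), so no block was used. With 2 libraries a group, both pairs must give the same correlation, so this is a single value. Named were RpL41, the 4 largest and 4 smallest ratios per comparison at a mean of at least 20 RPM, the paralog pairs, and the 5 transcripts most like RpL41. RpS15 in D862A over R949A, RpL13A in iCLIP, RpL3 in Yb KD Piwi small RNA and RpL37a and RpS19b were also named, after their values were seen. Some members that this rule names are not reported here. Members and lists were chosen with earlier results of these data known. Other steps ran in Python 3.11.15 (scipy 1.17.1, numpy 2.4.6, matplotlib 3.10.9, pandas 2.3.3).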

Additional observations from a re-analysis of the deposited data

How the results depend on the processing

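For Zuc KD, 0 members were called by limma with no block, and 0 with the replicate number as a replicate block. Members called numbered 1 with each library centred on its median (RpL41, lower), 2 with edgeR and 1 with DESeq2, and 0 to 26 when each library was left out in turn. Over all transcripts limma called 471 higher and 111 lower, 44 and 1 with no filter on low values, 153 and 58 at a mean of at least 20 RPM, and 14 to 1817 higher and 0 to 650 lower when a library was left out. The members' median log2 change turned to -0.12 with centred libraries, -0.12 with edgeR and -0.16 with DESeq2, scalings that bring the median of all transcripts to between -0.01 and 0.04, and RpL39 ran from -0.71 without control KD replicate 2 to 0.11 without control KD replicate 1. Of Piwi against Armi, 10 members lay above the table median, 6 at a mean of at least 20 RPM (of 54) and 3 above 0 as deposited. As a share of the total behind the RPM instead of the shared reads, the member ratios were 5.10 for Yb KD iCLIP, 5.00 for Piwi small RNA labelled Yb KD, 7.85 for D862A, 6.52 for R949A, 0.278 for Piwi against Armi, 1.14 for CLIPPARE against iCLIP and 1.13 for Zuc KD, where shared reads gave 3.06, 1.70, 4.12, 3.39, 0.344, 1.69 and 1.08. The cause was not tested, but the shared transcripts hold different parts of that total. Among values of single members and medians, 231 kept their direction and call or stayed within a fixed step on the log2 scale. Another 13 passed a threshold only under an alternative, 124 moved by at least that step and 4 turned. The step was not set from the error of the values. Reading values as deposited, relative to 0, shifts each of them by the table median, and such shifts are counted here. Depth limits Piwi small RNA most, with 1412 member reads in control KD.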
